A study of Homo sapiens with 11 samples.

Results

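JMJD1C binding along chromosome 9 of Kasumi-1 cells was described from 1444 of the 36191 peaks called in a ChIP-seq library, 3.99% of the list. All listed peaks on chromosome 9 (hg19) were taken and split by the position of the summit. The centre, from 38 to 71.5 Mb, held 174 peaks. The short arm, before 38 Mb, held 225 peaks, and the long arm, beyond 71.5 Mb, held 1045 peaks. Kasumi-1 is an established line of myeloblasts, grown from acute myeloid leukaemia and known for its RUNX1-RUNX1T1 fusion. Crosslinked, sonicated chromatin was precipitated with the submitters' own antibody, made against the N-terminus of JMJD1C. The series has 11 libraries: JMJD1C and LYL1 in each of 4 leukaemia lines, and input DNA of 3 lines. The other 10 libraries were not analysed here. No value below therefore has a replicate or an input beside it, tags that collect on repeats cannot be told apart from binding, and no p-value is given.

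JMJD1C belongs to the JmjC-domain family, many of whose members remove methyl groups from histones, and it is known in leukaemia as a cofactor of transcription factors. Around its centromere, human chromosome 9 carries a large block of repetitive heterochromatin, flanked on both sides by segmental duplications that lie in either orientation. Short tags from such copies can fit several places in the genome. How the alignment treated them is not given in the sources used here. The short arm carries CDKN2A, which encodes inhibitors of the cell cycle and is often lost in leukaemias. No hg19 annotation was used here, so peaks are given by position and not by gene.

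Of 29330355 tags in the library, the caller kept 19897991, at most 1 for each position. Fold enrichment is the value of the authors' peak caller, the summit over a background from the 10 kb around the peak in the same library. Intervals are 95% exact intervals and cover counting error only, since tags of 1 library are not replicates.

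The centre and the short arm had fewer peaks per Mb than the long arm, and the median peak held the most tags in the centre. The centre had 5.19 peaks per Mb (exact Poisson interval 4.45 to 6.03), the short arm 5.92 (5.17 to 6.75) and the long arm 15.0 (14.1 to 15.9). The intervals of the centre and the short arm overlap. Much of the centre's length is 1 stretch of 18.4 Mb without any peak, from 47186400 to 65576306. Assembly gaps of hg19 were not read here, so whether tags could align within this stretch was not tested. With the peak-free stretches of at least 3 Mb taken out, the density was 11.5 per Mb in the centre, 8.14 on the short arm and 15.8 on the long arm. The ratio of the centre to the long arm was 0.346 over the whole length (0.293 to 0.407) and 0.730 without these stretches (0.618 to 0.858). The ratio of the short arm to the long arm was 0.394 (0.340 to 0.456) and 0.516 (0.445 to 0.597). Both parts thus remained below the long arm, and how far the centre lay below it depended on the long stretch. For peaks of a fold of at least 20, counted without the stretches, the ratio to the long arm was 1.06 for the centre (0.681 to 1.60) and 0.519 for the short arm (0.326 to 0.799).

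Inside peaks the order was different. Summed tags per kb of peak were 118 in the centre (116 to 120), 66.8 on the short arm (65.3 to 68.3) and 85.6 on the long arm (84.8 to 86.3). The median peak held 35 tags in the centre, 22 on the short arm and 29 on the long arm, and median lengths were close, at 462, 428 and 478 bp in that order. The centre's surplus rested in part on few peaks, as its 5 richest peaks held 28.5% of its tags. Without the 5 richest peaks of each part the ratio of the centre to the long arm was 1.15, against 1.38 with them (1.35 to 1.41). As a ratio of medians over peaks it was 1.10.

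**Figure D1:**
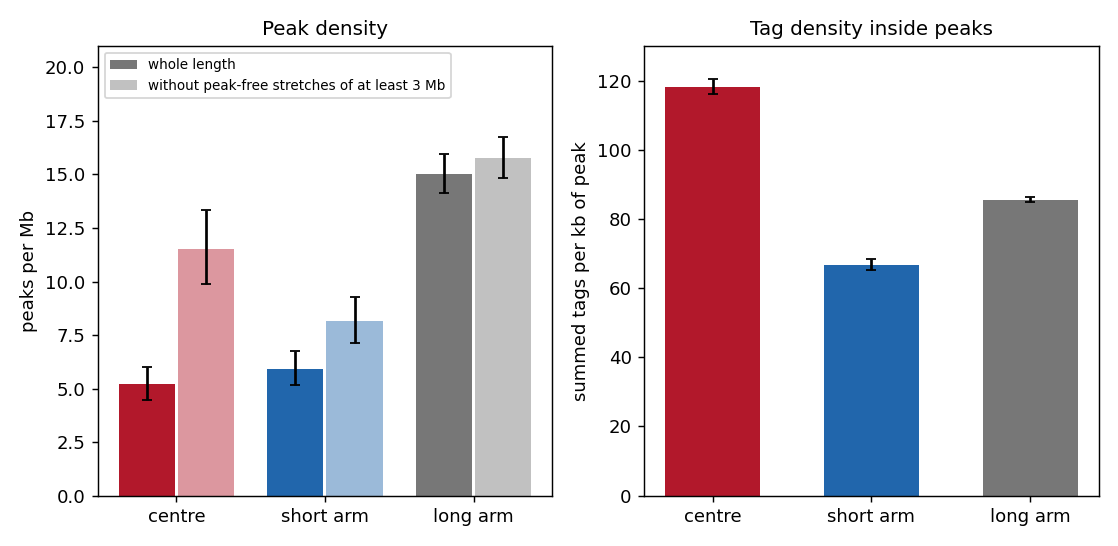
Peaks per Mb (left, dark bars over the whole length, pale bars without peak-free stretches of at least 3 Mb) and summed tags per kb of peak (right) for the centre, short arm and long arm of chromosome 9, with 95% exact Poisson intervals. The centre has 5.19 peaks per Mb over its whole length and 11.5 without the stretches, against 15.0 and 15.8 on the long arm. Tags per kb of peak are 118 in the centre, against 85.6 on the long arm.

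The 2 sides of the centre differed from each other. After the long stretch, from 65.6 to 71.5 Mb, 105 peaks gave 17.7 per Mb (14.5 to 21.5), with 135 tags per kb of peak and a median of 43 tags. Before it, from 38 to 47.2 Mb, 69 peaks gave 7.51 per Mb (5.84 to 9.51), with 84.4 tags per kb and a median of 23 tags. The density interval of the side after the stretch overlaps that of the long arm, and the interval of the side before it lies below. A fold of at least 20 was found for 16 of 105 peaks after the stretch (15.2%, exact Clopper-Pearson interval 8.97% to 23.6%) and 13 of 69 before it (18.8%, 10.4% to 30.1%), where the whole list had 9.84%. These 2 intervals overlap.

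The centre had many strong peaks. Of 174 peaks in the centre, 29 had a fold of at least 20 (16.7%, exact Clopper-Pearson interval 11.5% to 23.1%), as did 26 of 225 on the short arm (11.6%, 7.69% to 16.5%) and 120 of 1045 on the long arm (11.5%, 9.61% to 13.6%). The 3 intervals overlap, and only that of the centre excludes the 9.84% of the whole list. The 29 centre peaks include the 7 anchors and 4 partners at 103 kb of the matching sets described below. They also include the partners at 64.8 kb in sets 2, 3, 5 and 6, with folds of 20.57 to 21.52. The peaks at 76.74 to 76.78 kb in sets 5 and 7, with folds of 22.1 and 25.97, are among them too. Such peaks may not be independent sites, which the interval does not cover. At a fold of at least 10 the centre was not ahead: 56.9% of its peaks passed, against 63.6% on the short arm, 62.2% on the long arm and 60.1% of the list. Median folds lay close together, at 11.3 in the centre, 10.9 on the short arm and 11.4 on the long arm. The difference was therefore in the upper end of the distribution and not in the typical peak. At least 100 tags were found in 31 centre peaks (17.8%, 12.4% to 24.3%), 7 short-arm peaks (3.11%, 1.26% to 6.30%) and 102 long-arm peaks (9.76%, 8.03% to 11.7%), where the list had 10.1%.

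**Figure D2:**
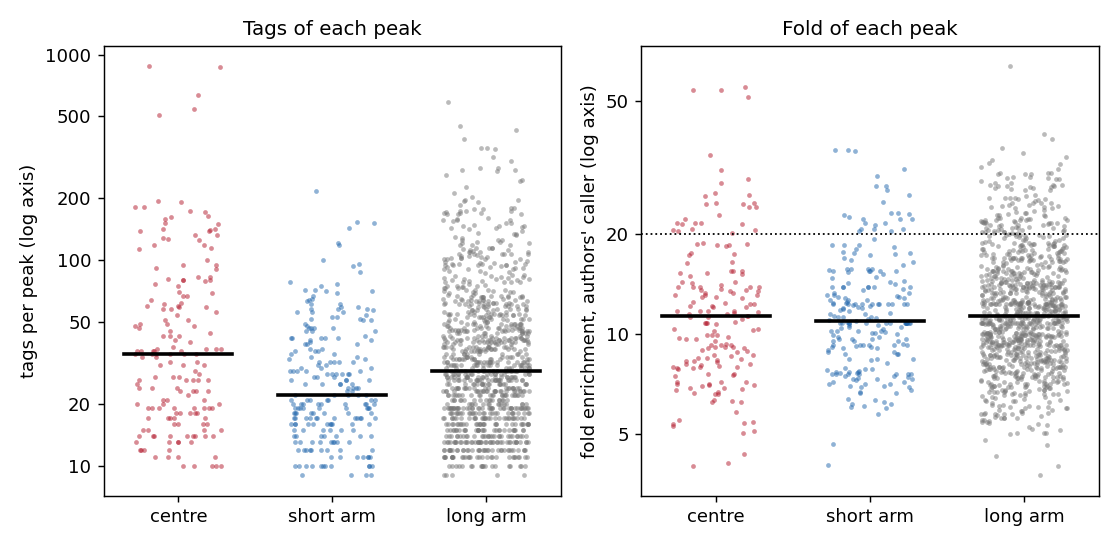
Tags (left) and fold enrichment (right) of each chromosome 9 peak by part, on log axes, with black bars at the medians and a dotted line at a fold of 20. The centre reaches 876 tags in a peak, while the short arm stays at or below 218 tags, and median folds lie between 10.9 and 11.4.

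The strongest sites by fold in the centre were 4 peaks above a fold of 50, a level reached by 0.0497% of the list. They started at 70076413 (fold 55.14, 100 tags, exact Poisson interval 81.4 to 122), 70327233 (fold 54.18, 95 tags, 76.9 to 116), 44070495 (fold 53.9, 92 tags, 74.2 to 113) and 42819000 (fold 51.65, 140 tags, 118 to 165). Lengths were 391 to 591 bp, around the centre's median of 462 bp. The next peak by fold, starting at 39930162, had a fold of 34.52 from 27 tags, so a gap separates the 4 from the rest of the centre. A weak peak of 16 to 20 tags lay 41.7 kb between summits from the peak at 42819000, 41.8 kb from that at 70327233 and 42.1 kb from that at 70076413. From the peak at 44070495 the nearest listed peak was a weak one at 48.0 kb. These distances were picked after the values were seen, and the peaks at 42819000 and 70076413 also had nearer neighbours.

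Peaks above a fold of 50 were rarer on the arms, a level chosen after the values were seen. The long arm had 1 peak above a fold of 50, from 78790077 to 78790325, with a fold of 63.64 from 57 tags (43.2 to 73.9) and its nearest peak 178 kb away. Its next peaks, starting at 95790628, 135092478, 114799910 and 96266969, had folds of 34.97 to 39.94 and 87 to 193 tags. The short arm had no peak above 50. Its highest folds were 35.75 (start 22050877, 52 tags), 35.65 (start 4619965, 56 tags), 35.46 (start 6594538, 27 tags), 31.31 (start 22158949, 54 tags) and 29.76 (start 35844783, 118 tags).

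The 5 tag-richest peaks of the centre all lay after the long stretch. The peak from 66970934 to 66972574 held 876 tags (819 to 936) at a fold of 16.39. The peak from 66832920 to 66836069 held 866 tags (809 to 926) at a fold of 13.47, and the broad peak of 4499 bp from 66454660 held 639 tags (590 to 691) at a fold of 10.9. The remaining peaks, starting at 69710594 and 67320149, held 545 and 508 tags. The signal outside the peak was 311 to 393 tags per 10 kb for the 3 of them with a usable value, against 54.3 to 118 for the 5 peaks of highest fold. On the long arm the richest peak, from 117133997 to 117136257, held 589 tags (542 to 639) at a fold of 21.69 with 119 tags per 10 kb around it. Its followers, starting at 134131297, 130544945, 130624212 and 135878100, held 353 to 450 tags. The short arm reached 218 tags (190 to 249), in the peak from 33289573 to 33291225, and its next 4, starting at 34123617, 36458143, 36151641 and 33239752, held 121 to 154 tags.

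Distances between strong peaks recurred in the centre. Among its 29 peaks of a fold of at least 20, 14 neighbouring pairs lay 20 to 200 kb apart, and 8 of these 14 distances had a match within 250 bp elsewhere in the centre. No distance of 6 on the short arm and 2 of 50 on the long arm had a match. Within the other 21 autosomes 148 of 964 distances had one (15.4%). Since a match becomes more likely with more distances, pairs of distances were counted too. In the centre 12 of 91 pairs matched (13.2%), on the short arm 0 of 15 and on the long arm 1 of 1225 (0.0816%). Within the other 21 autosomes, 84 of 25159 pairs matched in all (0.334%), and the highest share was 1.90%, on chromosome 21. The 12 pairs came from 2 distances, each present 4 times: one of 64.81 to 65.04 kb and one of 102.97 to 103.20 kb. Pairs drawn from the same 4 distances are not independent. The measure and its limits were chosen after the values were seen, and no p-value is given. With peaks of any fold the centre's share was 0.866%, against 0.555% on the short arm and 0.587% on the long arm, a smaller difference than among the strong peaks. At a tolerance of 500 bp these shares were 1.07%, 1.02% and 1.10%, and the centre was not ahead of the long arm.

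Taking all peaks with a score above 200 at either distance gave 7 sets, each aligned on an anchor, the peak of a pair with fewer tags. Along the chromosome the anchors started at 42587043, 42914327, 44070495, 66249900, 67087316, 67232606 and 69594471 (sets 1 to 7). Sets 2 and 7 had both distances. Sets 2, 3, 4 and 5 ran in one orientation, and sets 1, 6 and 7 ran in the opposite one.

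The anchors held 80, 70, 92, 81, 75, 67 and 69 tags in sets 1 to 7. The SD of the 7 counts was 8.79 tags, and Poisson counting alone gives 8.73 at their mean of 76.3. The anchor of set 3 is the peak of fold 53.9, and the other 6 had folds of 24.64 to 29.3. Without set 3, left out after its values were seen, the anchors ranged from 67 to 81 tags with an SD of 5.92. Anchors are the peaks with fewer tags of pairs chosen by score and fold, which narrows their range, so the small spread is a description only.

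The partner at 64.8 kb held 182, 119, 194, 182 and 159 tags in sets 2, 3, 5, 6 and 7. Over all 5 sets the SD was 29.8 tags, against 12.9 from Poisson counting, and the Poisson intervals had no value in common. Set 3 stood apart, with the lowest count and a distance of 65.04 kb. In the other 4 sets the distance varied by 13 bp, from 64.803 to 64.816 kb, and the SD was 14.6 tags, against 13.4 from Poisson counting. In those 4 sets a further peak followed 76.74 to 76.78 kb from the anchor, with 35, 60, 44 and 49 tags in sets 2, 5, 6 and 7. In set 3 no peak was listed there.

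On the other side of the anchor, the partner at 103 kb held 115, 128, 91 and 119 tags in sets 1, 2, 4 and 7. Their Poisson intervals had a value in common. A weaker peak lay 96.36 to 96.53 kb from the anchor in the same 4 sets, with 36, 36, 22 and 67 tags, and here the intervals had no value in common. The set 7 peak with 67 tags was 826 bp long, the longest of the 4. Another peak at 93.49 to 93.61 kb, with 48, 38 and 32 tags, was listed in sets 1, 2 and 4 and not in set 7. Other matches joined pairs of sets. Sets 5 and 7 had a tag-rich peak at 116.4 kb on the side of the 64.8-kb partner, with 876 and 545 tags, and sets 2 and 5 had weak peaks at 85.45 and 85.60 kb there, with 25 and 16 tags. On the other side, sets 1 and 7 had weak peaks at 113.2 and 113.1 kb, with 19 and 24 tags. Sets were found by their distances and by a score above 200, which also limits how far their tag numbers can differ. They are places in 1 library and not replicates. The part that tags fitting several places have in these numbers was not tested.

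**Figure D3:**
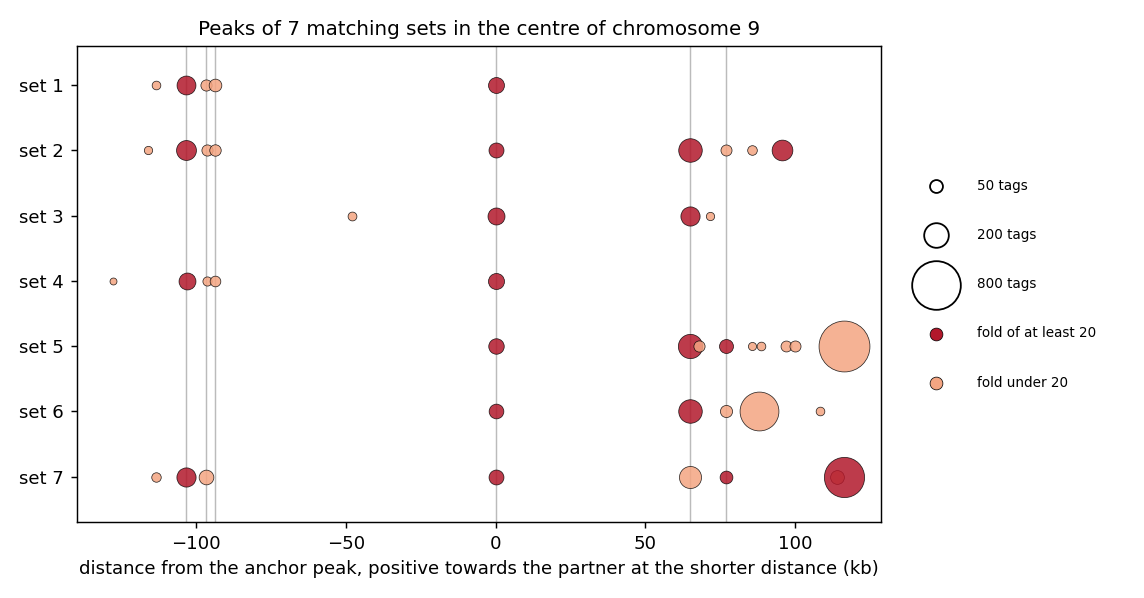
Peaks of 7 matching sets in the centre of chromosome 9, placed by distance from the anchor peak (kb), with circle area growing with tags, dark circles for a fold of at least 20, and grey lines at positions shared by 3 or more sets. The anchors hold 67 to 92 tags, and in sets 2, 5, 6 and 7 the partners at 64.8 kb and 76.7 kb line up.

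Spacing differed between the parts. Another peak lay within 10 kb of 48.3% of the peaks in the centre (40.6% to 56.0%), 41.3% on the short arm (34.8% to 48.1%) and 51.6% on the long arm (48.5% to 54.6%). The share over the list was 49.7%. The median distance to the nearest peak was 11.2 kb in the centre, 17.0 kb on the short arm and 9.59 kb on the long arm. The upper quartile showed a larger difference, at 48.3 kb in the centre, 44.9 kb on the short arm and 22.1 kb on the long arm. Peaks over 100 kb from any other made up 12.6% of the centre (8.10% to 18.5%), 11.1% of the short arm (7.32% to 16.0%) and 4.88% of the long arm (3.66% to 6.37%), where the list had 5.97%. The centre therefore held both remote peaks and dense groups. Within it, a neighbour within 10 kb was found for 54.3% of the peaks after the long stretch (44.3% to 64.0%) and for 39.1% of those before it (27.6% to 51.6%).

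When peaks at most 10 kb apart were joined, the centre had 3 regions of 5 or more peaks, with 31 of its peaks (17.8%). The short arm had 1 such region, with 2.22% of its peaks, and the long arm had 9, with 5.26%. The share over the whole list is not given here, so these shares compare the 3 parts only. The largest in the centre comprised 14 peaks and 2107 tags between 66783112 and 66844012. The signal around each of its peaks ranged from 285 to 779 tags per 10 kb. In joined regions this signal leaves out only the peak's own tags and includes those of neighbouring peaks. Next came 10 peaks with 804 tags from 69975377 to 70010415, with surroundings of 273 to 491 tags per 10 kb. A region of 7 peaks and 394 tags between 66987357 and 67023141 contained the 64.8-kb partner of set 5. On the short arm the largest region comprised 5 peaks and 186 tags between 35095814 and 35115364, and its next regions, starting at 11012 and 35023283, held 4 peaks each. On the long arm the largest region, from 138831199 to 138885141, held 10 peaks with 364 tags, in surroundings of 78.0 to 146 tags per 10 kb. Regions of 7 peaks started at 131636845 and 139592526. The largest regions of the centre and the long arm held 14 and 10 peaks. The median signal around a peak, tags of neighbouring peaks included, was 417 tags per 10 kb in that of the centre, against 97.1 in that of the long arm.

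The signal around isolated peaks, those with no other peak within 20 kb, was recovered from each peak's tags, length and score. Its median was 80.1 tags per 10 kb in the centre (exact order-statistic interval over peaks 72.3 to 90.3, 73 peaks), 65.4 on the short arm (63.3 to 66.6, 94 peaks) and 77.2 on the long arm (73.2 to 79.3, 269 peaks). The centre and long-arm intervals overlap, and that of the short arm lies below both. The centre had a longer upper tail, with values of 54.3 to 446, and 11 of its 73 values exceeded 150. On the short arm values ran from 46.4 to 118 with none above 150, and on the long arm from 42.5 to 164 with 4 above 150. Over the whole list, 337 of 11280 isolated peaks exceeded 150. The caller replaces a background below 73.7 tags per 10 kb by that minimum, so such values are upper limits. They made up 16.4% of the isolated peaks in the centre, 39.4% on the short arm and 14.1% on the long arm. Over all peaks, the minimum applied to 6.90% in the centre, 24.0% on the short arm and 5.07% on the long arm, where the list had 7.72%. Without the isolated peaks at the minimum the medians were 87.3, 78.3 and 80.1 in that order, a choice that removes low values.

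**Figure D4:**
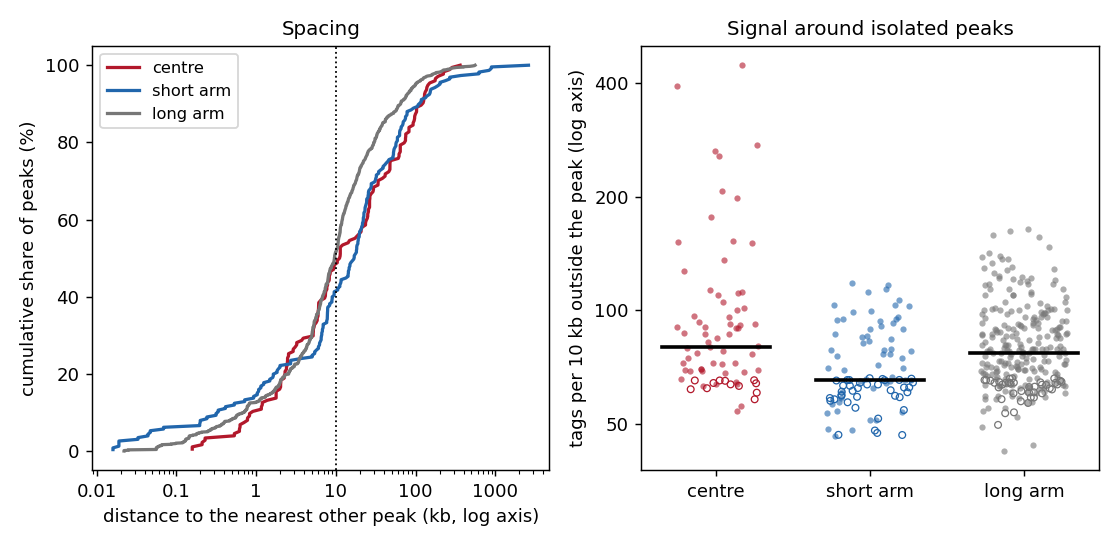
Cumulative share of peaks by distance to the nearest other peak (left, kb on a log axis, dotted line at 10 kb) and tags per 10 kb outside each isolated peak (right, log axis, open circles at the caller's minimum, black bars at medians) for the centre, short arm and long arm. From 10 to 100 kb the long arm's curve lies above the others, and the short arm has the lowest median signal, 65.4 against 77.2 on the long arm.

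Density and surroundings differed between the first 30 Mb of the short arm and its last 8 Mb. The first 30 Mb held 88 peaks, or 2.93 per Mb (2.35 to 3.61), with 60.9 tags per kb of peak. The last 8 Mb held 137 peaks, or 17.1 per Mb (14.4 to 20.2), with 69.6 tags per kb. The median around isolated peaks was at most 60.8 tags per 10 kb in the first 30 Mb (58.6 to 63.7, 56 peaks, 34 of them at the minimum) and 86.3 in the last 8 Mb (76.6 to 94.7, 38 peaks, 3 at the minimum). The last 8 Mb had a density whose interval overlaps that of the long arm. Tags per kb were below the long arm's 85.6 in both segments. The place of this split was chosen after the values were seen, and most peaks of the last segment lay beyond 33 Mb: the windows of 1 Mb from 30 to 33 Mb held 0, 1 and 7 peaks, and that from 33 to 34 Mb held 21. Of the 5 peak-free stretches of at least 3 Mb on the chromosome, 3 began in these 30 Mb. They ran from 9644853 to 12820184, from 22212026 to 25994559 and from 28221331 to 31633222, the last ending inside the next segment. The peaks at their edges held 9 to 30 tags. The remaining stretch, on the long arm, ran from 103382294 to 106760137 between peaks of 15 and 53 tags. The peaks beside the long stretch of the centre held 19 and 35 tags.

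The CDKN2A locus lies near 22 Mb, and 8 peaks with 210 tags in all were called from 21 to 23 Mb. The first 5, starting at 21047507, 21082160, 21160188, 21335104 and 21813981, held 13, 10, 28, 10 and 13 tags with folds of 9.25, 10.79, 27.76, 7.71 and 13.88, and each had a background at the caller's minimum. Then came 236.6 kb with no peak, followed by 3 peaks. These started at 22050877, 22158949 and 22211609, held 52 (38.8 to 68.2), 54 (40.6 to 70.5) and 30 tags (20.2 to 42.8) and had folds of 35.75, 31.31 and 23.01. A fold of at least 20 was thus found for 4 of the 8 peaks, the 3 after the gap and the peak at 21160188. The share of such peaks was 11.6% on the short arm and 9.84% over the list, and 8 peaks are few for a share. Of the 3 peaks after the gap, 2 are among the 5 highest folds of the short arm. The last peak is the edge of the stretch of 3.78 Mb up to 25994559. Sites in the peak-free 236.6 kb that are too weak for the caller's cutoff were not detectable at this depth.

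Density was uneven along the long arm and highest near its end. The window from 130 to 140 Mb held 355 peaks with 92.0 tags per kb, while that from 80 to 90 Mb held 72 peaks with 75.1 tags per kb. Median fold changed little between them, at 10.9 and 11.9. The median surrounding signal was 89.8 tags per 10 kb from 130 to 140 Mb (77.6 to 100.1, 43 isolated peaks) and 70.2 from 80 to 90 Mb (63.8 to 79.2, 35 isolated peaks). The densest single Mb of the chromosome lay from 139 to 140 Mb, with 56 peaks and 2726 tags. In the centre 17 of 34 windows of 1 Mb held no peak, against 10 of 38 on the short arm and 5 of 70 on the long arm. The empty windows of the centre all lay inside its long peak-free stretch, where assembly gaps were not read.

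The borders of the parts fell between ordinary peaks. The last short-arm peak, starting at 37998834, and the first centre peak, starting at 38020518, held 14 tags each. The last centre peak, starting at 71394820, held 37 tags, and the first long-arm peak, starting at 71594477, held 22 tags.

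Set beside the other 21 autosomes, the centre and the short arm stood at opposite ends in tags per kb of peak. The centre's 118 tags per kb of peak was above each of the other autosomes, which ran from 76.7 to 100.4, and the short arm's 66.8 was below each of them. Within the centre, the side before the long stretch had 84.4 tags per kb, inside that range, and the side after it had 135. With the 5 richest peaks left out of each part and each autosome, the centre had 94.9 tags per kb and the short arm 62.4, and the other autosomes ran from 73.8 to 90.3. These 5 peaks are a larger share of a part than of a whole autosome. The centre's share of peaks with a fold of at least 20, 16.7%, was above the range of 6.81% to 14.9%, and it counts peaks of the matching sets. The short arm's share, 11.6%, was also on the high side, with 2 of the 21 autosomes above it. The short arm's surrounding signal, 65.4 tags per 10 kb, lay just under the range of 66.1 to 91.1, and its density without stretches, 8.14 per Mb, just under the range of 8.59 to 32.0. The centre was inside both ranges, with 7 autosomes above its surrounding signal and 15 above its density without stretches. A whole autosome averages over more peaks than a part of chromosome 9, so parts can fall outside the range of chromosomes more easily. Chromosome 9 as a whole had rank 10 of 22 in tags per kb, with 87.2, and rank 2 in the share of peaks with a fold of at least 20, with 12.1%. It held 5 peaks above a fold of 50, and the other autosomes together held 10.

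**Figure D5:**
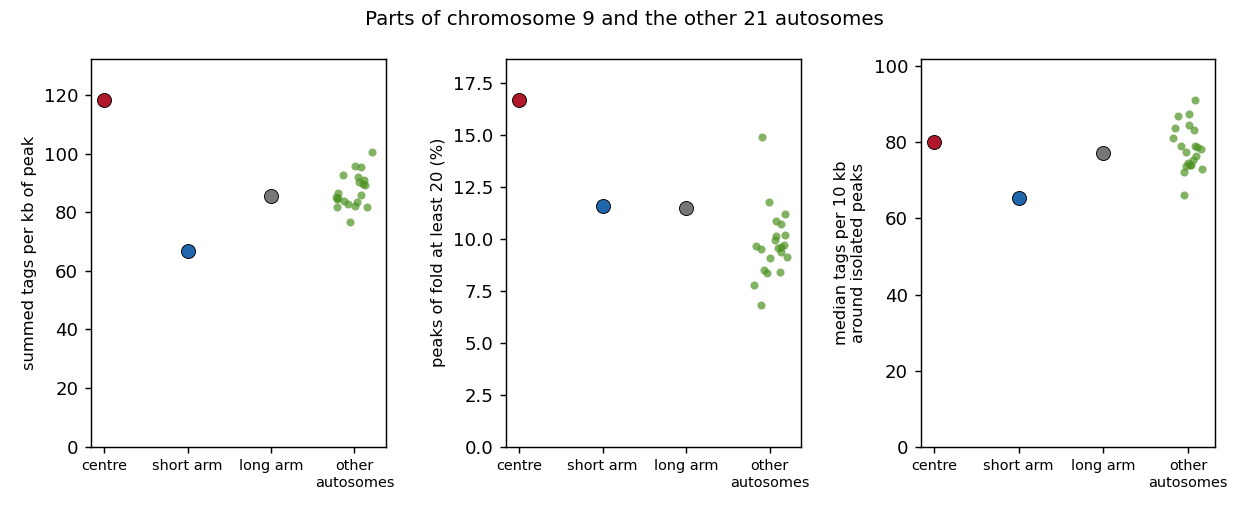
Summed tags per kb of peak, share of peaks with a fold of at least 20 and median tags per 10 kb around isolated peaks for the centre, short arm and long arm of chromosome 9 and, as small points, each of the other 21 autosomes. The centre lies above all other autosomes in the first 2 panels, and the short arm lies below all of them in the left and right panels.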

How the data were processed

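ChIP-seq of JMJD1C in Kasumi-1 cells was analysed from 1 deposited peak list. The submitters' processing notes name the build hg19 and the tools Bowtie2 2.1.0 and HOMER, with no role. Per the file headers, peaks were called with MACS 1.4.2 without a control, at a p-value cutoff of 1e-05, with tags of 51 bp, a fragment size of 88 bp and a limit of 1 tag per position. That limit took away 32.2% of 29330355 tags. The deposited columns are tag counts per peak, a score (minus 10 times the log10 of the Poisson p-value) and the caller's fold enrichment, a ratio to its local background. Positions are 1-based. Keeping 1 tag per position caps the tags of narrow peaks. The list reaches down to 9 tags, so depth limits its weak end.

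No peak was left out. To recover the local background, the score was inverted through the Poisson distribution, with a window of the peak's length and at least 176 bp. Tags per 10 kb should come out whole, so the value was used where it missed an integer by at most 0.05, or the genome-wide minimum of 73.7 by at most 0.15, in peaks of 176 to 5000 bp with a score below 3100 and no more tags than background (1386 peaks of chromosome 9, 96.0%). Surrounding signal is this background minus the peak's own tags, scaled to 10 kb. Parts were compared by exact intervals within 1 library, with no test. Named sites are the 5 highest folds, the 5 most tags and the 3 largest regions of each part, the peaks from 21 to 23 Mb and those beside stretches of at least 3 Mb. The matching sets, the segments within parts and the peaks above a fold of 50 were chosen after their values were seen. The members and lists were chosen with earlier results of these data known. The code was tested on simulated data. Tables were computed with pandas 2.3.3, SciPy 1.17.1 and NumPy 2.4.6 under Python 3.11.15, and plots drawn with Matplotlib 3.10.9.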

Additional observations from a re-analysis of the deposited data

How the results depend on the processing

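No paired analysis was possible because 1 library was analysed. Under the 29 planned and 11 added alternatives, 18 values stayed within the reported value's interval and 22 moved outside it. None turned a ratio to the other side of 1. Not counted among them is the centre's density ratio for peaks of a fold of at least 20 without the stretches. It was 1.06 (0.681 to 1.60), on the other side of 1. The counts of autosomes have no exact interval, and a set range around the count was used for them instead. The ratio of peaks per Mb to the long arm was 0.730 for the centre and 0.516 for the short arm without peak-free stretches, and 0.281 and 0.330 for peaks scoring above the list's median. The ratio of tags per kb was 1.10 for the centre and 0.901 for the short arm by medians over peaks, and 1.15 and 0.753 without the 5 richest peaks. For the centre it was also 1.33 without peaks over 2000 bp, 1.55 for peaks scoring above the median and 1.43 with borders at 40 and 70 Mb. A neighbour was found for 16.1% of centre peaks at up to 2 kb, for 75.3% at up to 50 kb and for 23.2% among peaks of fold 10 or more, which follows from the distances and the smaller list. Over all peaks with a recovered background the surrounding signal was 112 tags per 10 kb in the centre, 83.3 on the short arm and 96.3 on the long arm. Without peaks at the minimum it was 78.3 on the short arm and 80.1 on the long arm. The share of matching distances was 6.59% at a tolerance of 100 bp, 1.39% with a minimum fold of 10 and 0.866% with none. The causes of these moves were not tested beyond what each alternative's construction gives. Without the 5 richest peaks of each, 0 of the other 21 autosomes were above the centre in tags per kb and all 21 above the short arm, as with them. The alternatives that leave out the richest peaks or peaks near stretches, and those on matching distances, were chosen after seeing the data.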
